A study of Mus musculus with 3 samples.

Results

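The matrix proteases and their inhibitors described here are the matrix metalloproteinases (MMPs), the ADAM and ADAMTS metalloproteinases, the ADAMTS-like proteins and the tissue inhibitors of metalloproteinases (TIMPs) of the mouse. They were chosen by gene symbol, as all gene rows that begin with Mmp, Adamts, Adamtsl, Adam or Timp followed by a digit, with the exception of Mmp9 and Mmp13, which gave 81 of 32285 gene rows. The data were single-cell RNA sequencing libraries of fracture callus, the repair tissue that bridges a broken bone, taken on day 7 from female C3H/HeJ mice operated at 9 weeks of age. Each mouse had a femur fractured at midshaft and held by an intramedullary pin, and all groups shared this injury. The Control group was given vehicle (PBS) by daily subcutaneous injection, the PTH group 100 µg per kg of PTH 1-34, a fragment of parathyroid hormone, and the YKL group 15 mg per kg of YKL-05-099, an inhibitor of the salt-inducible kinases. The day is that of the sample labels, whereas the series' design text names later days for euthanasia and speaks of early time points for the sequencing. There was 1 library per group, and how many mice each library came from is not stated in the sources used here.

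MMPs, ADAMs and ADAMTS proteins cut collagens, proteoglycans and cell surface proteins with a zinc ion held by histidines in the active site. They are made as inactive precursors, and TIMPs block them by binding the zinc. In a healing callus, cartilage forms first and is then calcified, resorbed and replaced by bone, so that proteases of cartilage, vessels, fibrous tissue and invading blood cells act side by side. Collagenase was also used to free the cells from the tissue, but the counts are of the cells' RNA and not of that enzyme.

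The deposited matrices had 55250651 unique molecular identifiers (UMIs, each the mark of 1 captured RNA molecule) in 8021 barcodes of the Control library, 33981167 in 5286 of the PTH library and 19424073 in 1500 of the YKL library. After filtering, 2901, 1906 and 602 cells were kept, with medians of 11677, 12284 and 25758 UMIs. The libraries shared 8, 3 and 2 barcodes pairwise, 1 of them between kept cells of the Control and PTH libraries. Clusters were named X-like from marker genes, and the class names used here stand for such clusters. Of chondrocyte-like cells, the Control, PTH and YKL libraries held 1401, 639 and 392. Fibroblast-like cells numbered 110, 279 and 17, endothelial-like cells 193, 309 and 57, pericyte-like cells 79, 62 and 9, and macrophage-like cells 140, 79 and 15. Neutrophil-like cells made up 15.0% of the Control cells but 1.10% of PTH and 2.49% of YKL cells, although marrow had been avoided, and tendon-like cells came almost entirely from the PTH library (3, 228 and 2 cells). Neutrophil-like cells numbered 436, 21 and 15 and Schwann-like cells 25, 38 and 3. No cluster was named osteoblast-like. The chondrocyte-like clusters 3 and 6 had 6 and 4 osteoblast markers, but 15 chondrocyte markers each. The Schwann-like cluster had 9 Schwann markers, 3 of them among its first 10 genes, and also 11 chondrocyte markers. Clusters 9 and 12 were left unnamed because they had markers of several classes. Unnamed cluster 9, led by Spp1 and Ibsp, held 145, 27 and 38 cells, and unnamed cluster 12, led by Ibsp and Mmp13 with Col1a1 among its first 10 genes, held 58, 97 and 19.

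Levels are given as CPM, the UMIs of a gene per 1e6 UMIs summed over all cells of a class in a library. Kits that read the 3′ end count each molecule once, so levels of different genes can be set side by side without a correction for length. Intervals are exact 95% counting intervals. They and the floor of 3 counts used for a gene at 0 cover counting error only, and since each treatment is 1 library, no test between groups could be run, no p-value is given, and library and treatment cannot be told apart.

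The 81 genes together held 166798 UMIs, 0.214% of those in kept cells. Of the 81, 52 had at least 30 UMIs, 13 had 1 to 29 and 16 had none. The genes at 0 were Mmp1b, Mmp7, Mmp20 and Mmp21 among the MMPs and 12 ADAM genes, Adam2, Adam7, Adam20, Adam24, Adam25, Adam26a, Adam26b, Adam29, Adam34, Adam39, Adam6a and Adam6b, several of which are known from the testis. The 4 TIMPs alone held 92941 UMIs, more than all the other listed genes together. Secreted MMPs followed with 32381, sheddase ADAMs with 12056 and membrane-type MMPs with 11648. The 7 proteoglycan-cleaving ADAMTS genes had 7358, the 3 procollagen-processing ones 3208, the other 9 ADAMTS genes 4011 and the ADAMTS-like genes 2245. Of the 52 better counted genes, 31 had their highest level in the same cell group in the Control and the PTH library. No such share over all genes is given beside it. The libraries also did not show the same groups. Tendon-like cells were too few in the Control library, so the 6 genes led by them in the PTH library could not match. T or NK-like and B lineage-like cells were too few in the PTH library. Some highest levels rest on very few UMIs, such as 2 for Timp4 in Control pericyte-like cells.

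The active sites of 10 proteases that the results below describe are printed here because this zinc-binding site is what the enzymes of the family share. The extended zinc-binding motif of the family was searched in the coding sequence of each gene (GENCODE vM21, build GRCm38), and each run of 33 bases below reads 5′ to 3′ on the coding strand, with the codons of the conserved residues in capitals. Codon numbers count from the start codon. The coding sequences of Mmp2, Mmp14, Mmp8, Mmp12 and Mmp3 held it at codons 403, 239, 217, 222 and 220, those of Adamts5, Adamts1 and Adamts4 at 410, 402 and 369, and those of Adam10 and Adam17 at 384 and 424.
Mmp2: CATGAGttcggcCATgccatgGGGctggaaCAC
Mmp14: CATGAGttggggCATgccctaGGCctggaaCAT
Mmp8: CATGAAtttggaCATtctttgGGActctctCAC
Mmp12: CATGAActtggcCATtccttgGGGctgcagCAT
Mmp3: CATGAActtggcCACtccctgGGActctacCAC
Adamts5: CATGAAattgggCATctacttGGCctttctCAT
Adamts1: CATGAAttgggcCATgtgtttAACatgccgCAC
Adamts4: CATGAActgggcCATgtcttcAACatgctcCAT
Adam10: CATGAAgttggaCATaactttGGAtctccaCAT
Adam17: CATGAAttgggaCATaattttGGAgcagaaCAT

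The planned motif had glycine as its 8th residue, and asparagine was allowed there after the first search. In all, 58 of the 81 coding sequences held the motif in either form. In 53 of them the 8th residue was glycine, and in 5, Adamts1, Adamts4, Adamts9, Adamts15 and Adamts20, all proteoglycan-cleaving, it was asparagine. Adamts5, of the same list, had the glycine form. The sites of Adamts4 and Adamts15 were identical at 30 of 33 bases, those of Adamts1 and Adamts9 at 28 and those of Adamts1 and Adamts5 at 20. Mmp2 and Mmp14, of which the latter activates the precursor of the former, matched at 27 bases, and Mmp3 matched both Mmp8 and Mmp12 at 26. No match was found in the 4 TIMPs, the 5 ADAMTS-like genes or Adam11, Adam22 and Adam23, nor in Adamts8, and 11 of the 21 other ADAMs had it. Only glycine or asparagine was allowed as the 8th residue, so the lack of a match, as in Adamts8, does not show that a zinc site is missing.

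Mmp12, Mmp3 and Mmp8 lie on mouse chromosome 9 in a stretch of 355.2 kb that holds 8 of the listed MMP genes (chr9:7344381-7699585, GRCm38). Of the 8, Mmp12 had 1236 UMIs, Mmp3 1029 and Mmp8 3525, Mmp27 had 12, Mmp10 had 5 and Mmp1b, Mmp20 and Mmp7 had none. Each of the 3 counted neighbours was led by a different cell type: Mmp12 by macrophage-like, Mmp3 by fibroblast-like and Mmp8 by neutrophil-like cells. The 250 bases before their start sites (RefSeq, GRCm38.p6, plus strand) are printed because these neighbours differ so much in where they were read, with any match to the motifs searched in capitals. The windows are chr9:7344147-7344396, chr9:7445572-7445821 and chr9:7558179-7558428.
Mmp12: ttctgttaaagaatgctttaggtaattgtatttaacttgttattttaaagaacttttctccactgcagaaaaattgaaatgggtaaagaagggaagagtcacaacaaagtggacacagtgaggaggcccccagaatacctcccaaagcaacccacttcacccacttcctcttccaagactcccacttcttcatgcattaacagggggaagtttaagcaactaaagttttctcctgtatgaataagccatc
Mmp3: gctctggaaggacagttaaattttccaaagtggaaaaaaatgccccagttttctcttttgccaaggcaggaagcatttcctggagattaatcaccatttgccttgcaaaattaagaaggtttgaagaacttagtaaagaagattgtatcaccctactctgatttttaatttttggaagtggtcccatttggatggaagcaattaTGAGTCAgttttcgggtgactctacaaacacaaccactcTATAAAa
Mmp8: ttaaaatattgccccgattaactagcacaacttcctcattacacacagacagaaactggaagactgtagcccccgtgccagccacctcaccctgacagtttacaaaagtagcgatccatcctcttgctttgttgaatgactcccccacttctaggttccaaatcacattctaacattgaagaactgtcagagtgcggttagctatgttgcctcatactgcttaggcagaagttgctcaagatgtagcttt

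The capitals in the Mmp3 window are TGAGTCA, 46 bases before the start, and TATAAA, 7 bases before it. The motifs searched on both strands were TGANTCA (AP-1), TGACGTCA (the cAMP response element), TGTGGT (RUNX) and TATAAA. They were searched in the windows of the 32 better counted genes that matched the RefSeq table. TGANTCA was in 1 of the 32, that of Mmp3, against 6.87% of 27025 windows of all genes. TGACGTCA was in 0 of 32, against 1.62% of all windows. TGTGGT was in 3, those of Adam15, Mmp23 and Mmp14, against 14.2% of all windows, and TATAAA in 3, those of Mmp3, Adamts1 and Adamtsl2, against 12.97%. These matches describe the letters of a window only.

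Over all kept cells, Timp1, Timp2 and Timp3 had 39898, 39559 and 13435 UMIs, while Timp4 had 49. Timp1 (ENSMUSG00000001131, chrX:20870166-20874735, plus strand), an inhibitor with a wide range of MMP targets, was at 539, 380.0 and 441 CPM in chondrocyte-like cells of the Control, PTH and YKL libraries. Its highest level in the Control library was that of unnamed cluster 9, and the 3 libraries read 1908, 845 and 927 CPM there. In unnamed cluster 12 it was at 969.6, 1253 and 1145 CPM. Tendon-like cells of the PTH library held 1292 CPM. Endothelial-like cells were low, with 49.6, 62.8 and 64.3 CPM. Fibroblast-like cells stood at 539.6, 556 and 401 CPM. Timp1 lies within the gene Syn1 on the opposite strand, and the sources used here do not say if the counting was stranded.

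Timp2 (ENSMUSG00000017466, chr11:118301069-118355740, minus strand), which blocks MMPs and also brings the Mmp2 precursor to Mmp14 for activation, was highest in fibrous cells. Fibroblast-like cells read 1244, 1636 and 1825 CPM in the 3 libraries and tendon-like cells of the PTH library 4209 CPM. Macrophage-like cells were at 586, 657 and 353 CPM and neutrophil-like cells at 299, 412 and 129 CPM, and pericyte-like cells of Control and PTH at 357 and 419.5 CPM. Chondrocyte-like cells were low and even, at 156, 152 and 134 CPM. Over all kept cells the Control, PTH and YKL libraries read 237, 1056 and 185 CPM, and the PTH library held nearly all tendon-like cells and the most fibroblast-like cells.

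Timp3 (ENSMUSG00000020044, chr10:86300372-86349506, plus strand), which stays bound to the matrix and also inhibits Adam17 and the aggrecan-cleaving Adamts4 and Adamts5, had another pattern. Schwann-like cells read 606 and 721 CPM in the Control and PTH libraries and pericyte-like cells 355 and 491 CPM. Endothelial-like cells were at 285, 367 and 372 and fibroblast-like cells at 346, 319 and 433 CPM in the Control, PTH and YKL libraries. Macrophage-like and neutrophil-like cells were lowest of the classes given, at 5.5, 13.7 and 5.78 and 9.94, 22.9 and 16.1 CPM. The value of YKL macrophage-like cells and those of PTH and YKL neutrophil-like cells are 1 UMI each, under the floor of 3 counts. In chondrocyte-like cells Timp3 differed between libraries more than Timp1 and Timp2 did, with 95.01, 168 and 304 CPM. A Timp3 UMI was found in 46.6, 58.1 and 77.04% of chondrocyte-like cells of the 3 libraries in the same order, with median depths of 16848, 18211 and 30438.5 UMIs. With each cell thinned to 2000 UMIs the shares were 13.5%, 21.9% and 31.5%. In Control neutrophil-like cells, at a median depth of 3133 UMIs, the share was 3.67%.

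**Figure D1:**
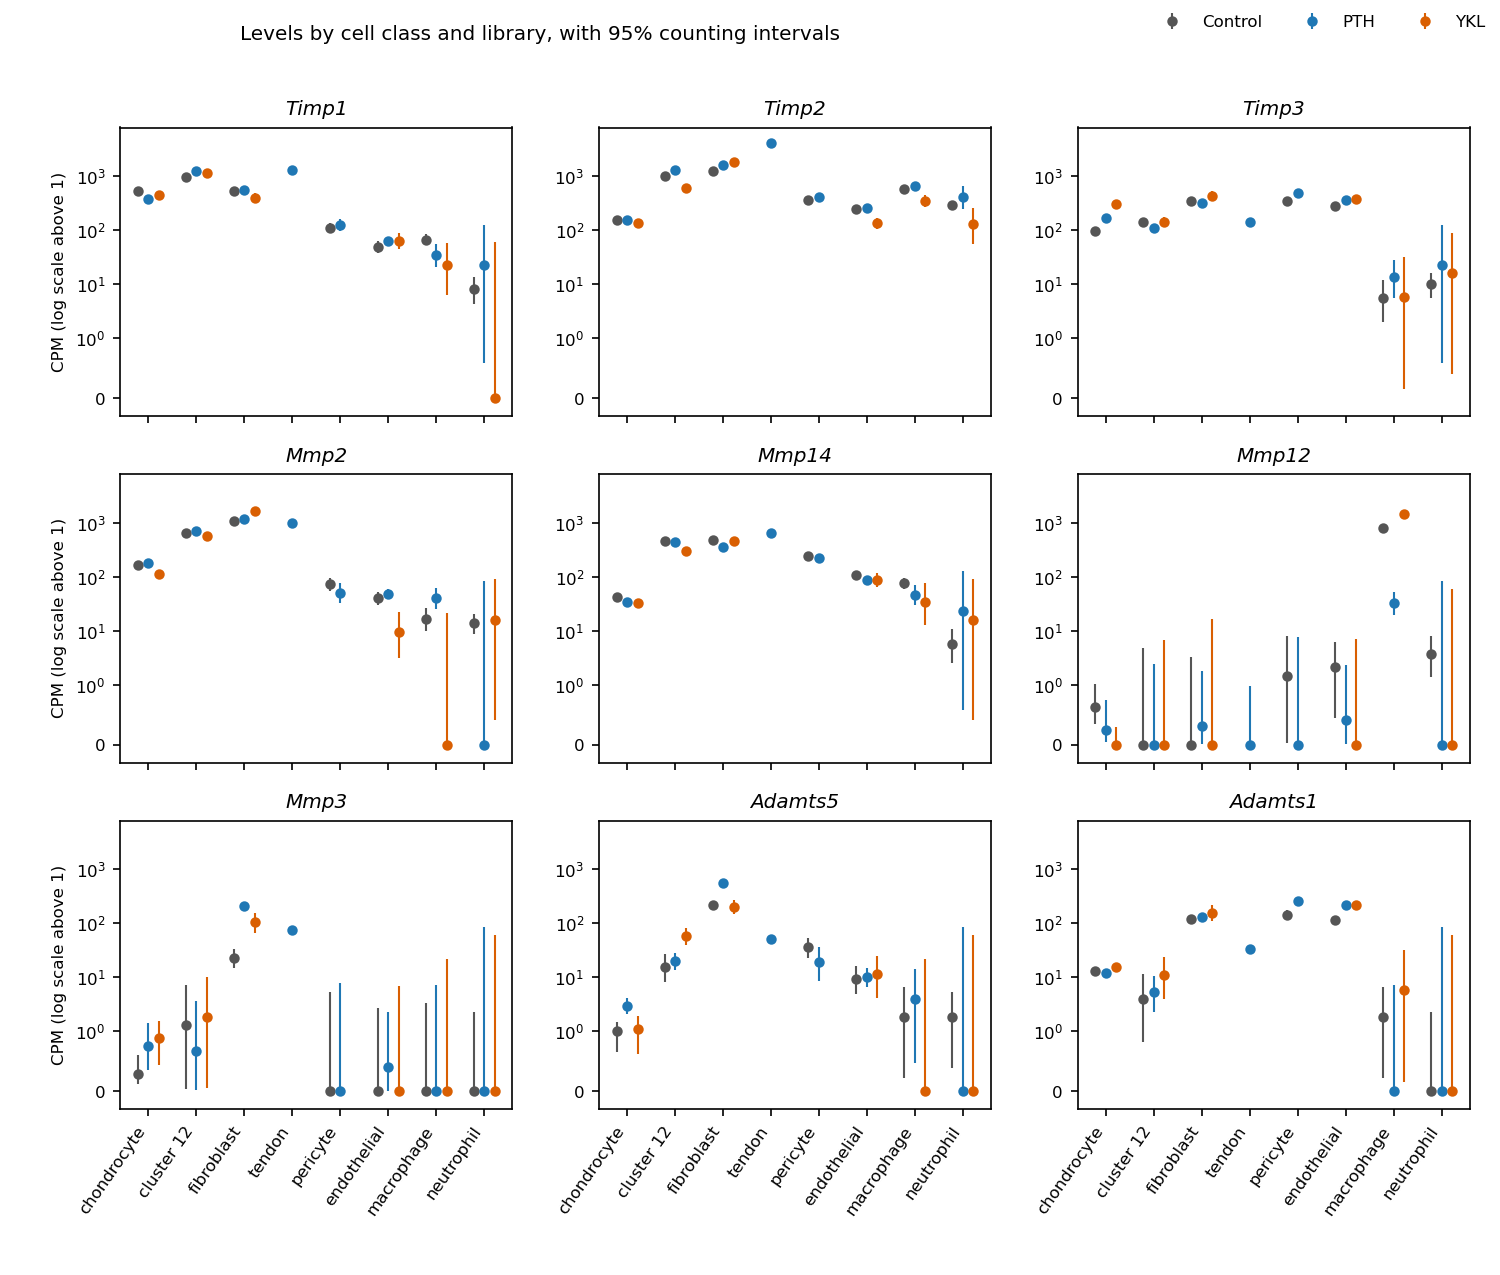
Levels of 9 inhibitors and proteases by cell class and library, in CPM on a symmetric log axis, with 95% counting intervals as bars and 1 point per library. Timp3 in the chondrocyte-like class is ordered Control, PTH, YKL, while Mmp12 in the macrophage-like class stands at 801 CPM in Control against 33.2 CPM in PTH cells.

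Of the secreted MMPs, Mmp2, the gelatinase A of connective tissue, was the best counted, with 20235 UMIs. Fibroblast-like cells read 1087, 1193 and 1653 CPM, tendon-like cells of the PTH library 1009 CPM and unnamed cluster 12 638, 690.1 and 563 CPM. Chondrocyte-like cells read 165, 183 and 113 CPM. Mmp23, which is made with a membrane anchor at its amino end and was counted here in the list of secreted MMPs, was at 179, 169 and 22.5 CPM in fibroblast-like cells of the 3 libraries, 171 CPM in tendon-like cells of the PTH library, 149.8, 148 and 60.5 CPM in cluster 12 and 59.04, 46.9 and 22.9 CPM in chondrocyte-like cells. The value of fibroblast-like cells in the YKL library rests on 17 cells.

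The other secreted MMPs differed in the cell types that led them. Mmp8, the collagenase stored in neutrophil granules, was at 1901, 1419 and 419 CPM in neutrophil-like cells and at 38.5, 37.1 and 98.3 CPM in macrophage-like cells, in which the 11 neutrophil markers summed to 2677, 76.2 and 28761 CPM. Mmp12, the macrophage elastase, was at 801, 33.2 and 1474 CPM in macrophage-like cells. All 255 of its UMIs in the YKL library's macrophage-like cells were in 1 of 15 cells, so that value describes a single cell, whereas 40 of 140 Control cells and 7 of 79 PTH cells had a UMI. Mmp3, stromelysin-1, was at 22.8, 207 and 104 CPM in fibroblast-like cells, read in 12 of 110, 50 of 279 and 4 of 17 cells, and at 76.1 CPM in tendon-like cells of the PTH library. It did not exceed 9.03 CPM in any other class, with 1 of 309 endothelial-like cells of the PTH library holding a UMI at a median depth of 5910 against 10799 in fibroblast-like cells. Mmp11, stromelysin-3, was highest in pericyte-like cells at 68.9 and 131 CPM in the Control and PTH libraries. Mmp19 was at 181, 35.2 and 17.3 CPM in macrophage-like and 43.9, 62.5 and 36.04 CPM in fibroblast-like cells.

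Among the membrane-type MMPs, Mmp14 (MT1-MMP, a surface collagenase and the activator of the Mmp2 precursor) had 9518 UMIs. It was at 471, 352 and 455 CPM in fibroblast-like cells and 453, 445 and 304 CPM in cluster 12 of the 3 libraries. Osteoclast-like cells, the bone-resorbing cells, read 125 and 477 CPM in the Control and PTH libraries, from 29 and 24 cells, and tendon-like cells of the PTH library, its highest class there, 636 CPM. Endothelial-like cells were at 108, 87.04 and 88.8 and chondrocyte-like cells at 42.2, 34.2 and 32.9 CPM. Its partners Mmp2 and Timp2 were also highest in fibrous cells, by levels summed over each class. Whether the same cells held all 3 was not tested. Mmp15 was led by Schwann-like (124 and 93.7 CPM in Control and PTH) and endothelial-like cells (51.02, 66.1 and 85.04 CPM in the 3 libraries). Mmp16, like Mmp14 a membrane-spanning enzyme, was at 49.1, 35.3 and 31.5 CPM in fibroblast-like and 25.2, 19.3 and 10.2 CPM in chondrocyte-like cells. The 2 members held by a lipid anchor were read elsewhere: Mmp17 in Schwann-like cells, at 82.8 and 106 CPM in Control and PTH, and Mmp25 in neutrophil-like cells, at 96.9, 45.8 and 64.5 CPM. The PTH and YKL values of Mmp25 rest on 21 and 15 cells, where the floor of 3 counts is 68.7 and 48.4 CPM. Those libraries held 4 and 5 Mmp25 UMIs over all kept cells.

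**Figure D2:**
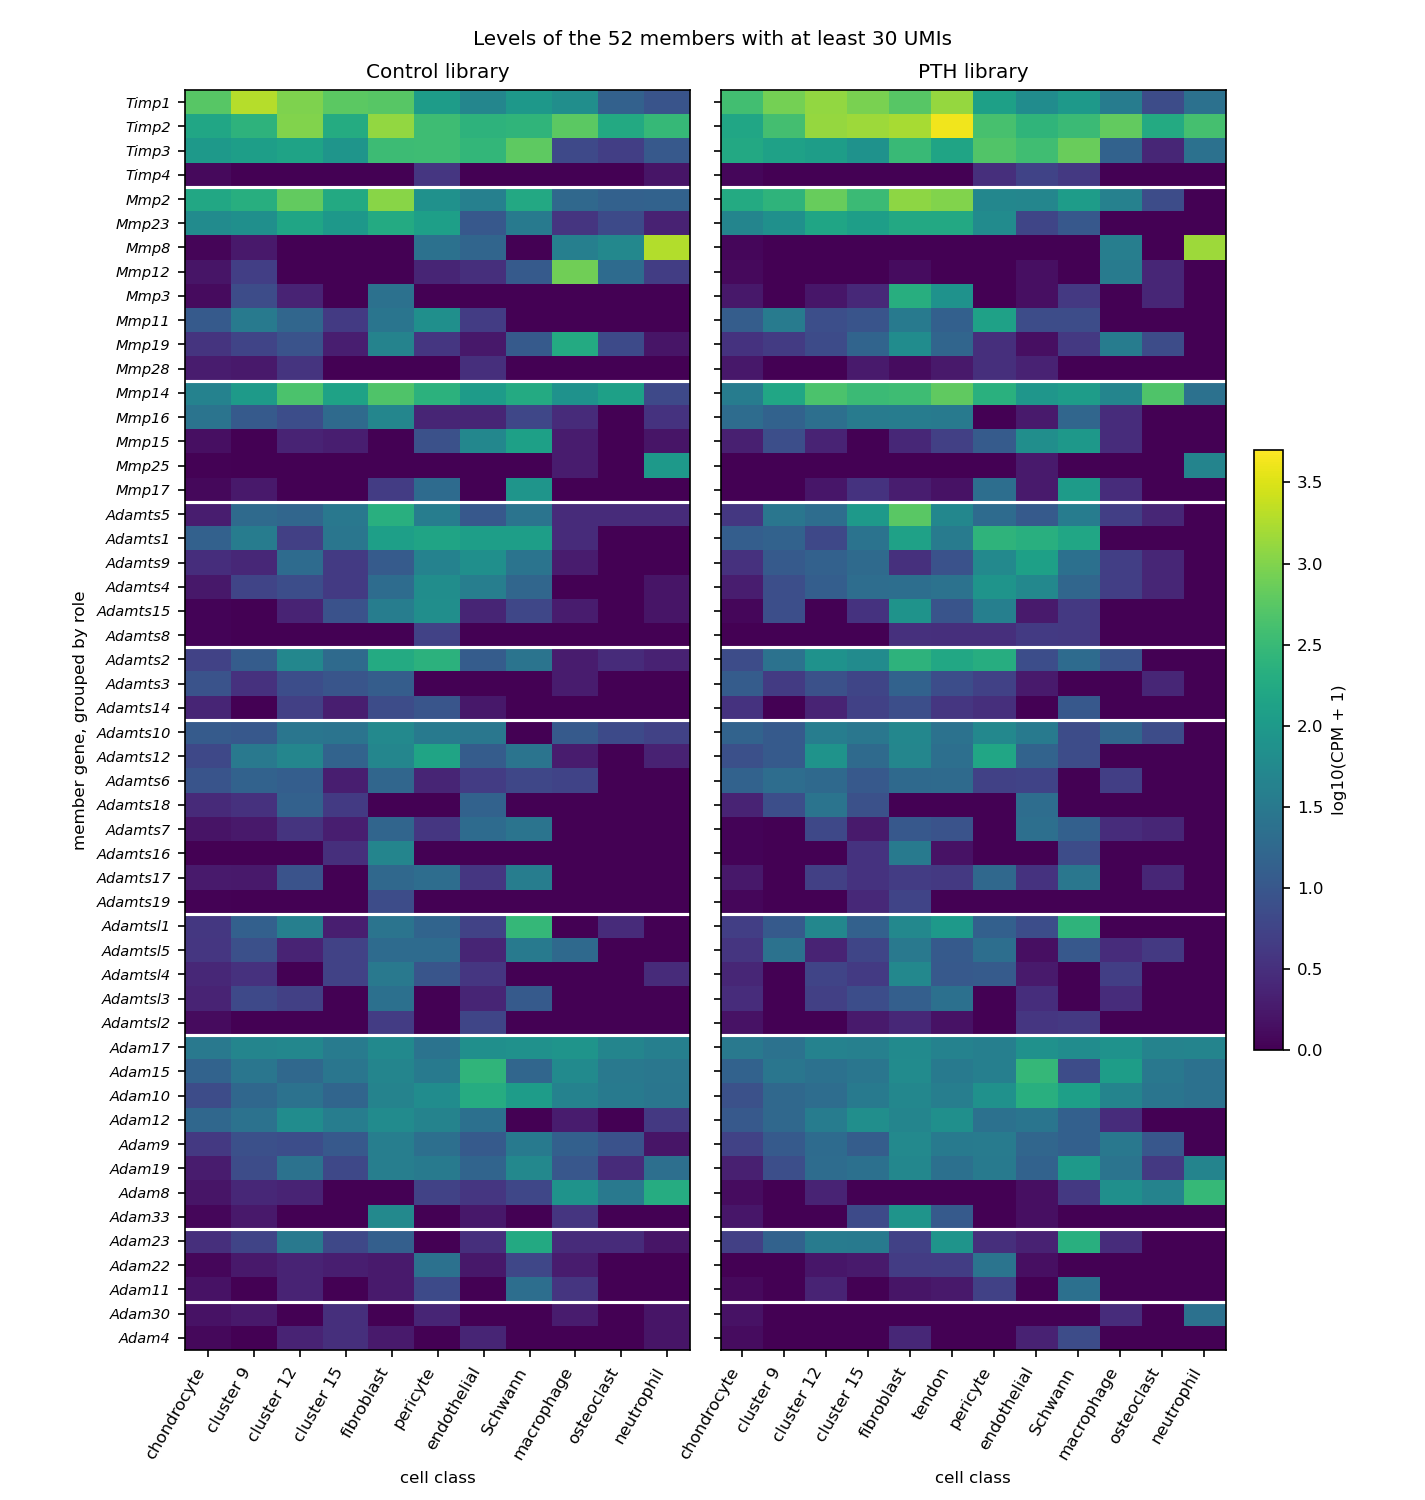
Heatmap of the 52 genes with at least 30 UMIs (rows, grouped by role) over the main cell classes (columns) in the Control and PTH libraries, coloured by log10 of CPM plus 1. Brighter colours are higher levels. Timp1, Timp2 and Mmp2 are bright in most connective tissue columns, while Mmp8 and Mmp25 are brightest in the neutrophil-like and Mmp12 in the macrophage-like column.

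Adamts5 and Adamts1 were the best counted proteoglycan-cleaving ADAMTS genes, with 2794 and 2680 UMIs, and differed in where they were read. Adamts5, an aggrecanase, was at 214, 565 and 203 CPM in fibroblast-like cells and at 314 CPM in muscle-like cells of the PTH library, but at 1.01, 2.95 and 1.12 CPM in chondrocyte-like cells. Adamts1, which cleaves versican, was at 116, 218 and 217 CPM in endothelial-like, 120.2, 129 and 158 CPM in fibroblast-like and 12.9, 11.97 and 15.8 CPM in chondrocyte-like cells, and at 144 and 255 CPM in pericyte-like cells of the Control and PTH libraries. Of the classes named, the chondrocyte-like cells had the lowest level of both genes. Adamts9 was highest in endothelial-like cells, at 68.3, 126 and 98.3 CPM. Adamts4, the other main aggrecanase, was at 37.4, 52.96 and 47.2 CPM in endothelial-like cells and at 64.6 and 82.2 CPM in pericyte-like cells of Control and PTH.

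The procollagen-processing enzymes remove the amino-terminal propeptides of fibrillar collagens. Adamts2 was at 181, 242 and 212 CPM in fibroblast-like cells and at 234 and 200.3 CPM in pericyte-like cells of Control and PTH. Adamts3, known also for lymphatic growth, was at 11.4, 13.5 and 4.51 CPM in fibroblast-like and 7.78, 11.1 and 7.36 CPM in chondrocyte-like cells. Among the other ADAMTS genes, Adamts12 was led by pericyte-like cells (144 and 152 CPM in Control and PTH), and Adamts10, a microfibril-associated member, by fibroblast-like cells of the Control library (53.5 and 51.3 CPM in Control and PTH). Adamts16 was read almost only in fibroblast-like cells, at 46.5 and 33.02 CPM in Control and PTH. Adamts6 was at 8.29, 13.4 and 12.6 CPM in chondrocyte-like cells, and Adamts18 was at 13.7, 19.7 and 24.6 CPM in endothelial-like cells.

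The ADAMTS-like proteins keep the binding domains without the protease domain, and several bind fibrillin microfibrils. Adamtsl1 was led by Schwann-like cells, at 289.9 and 249.8 CPM in the Control and PTH libraries, with tendon-like cells of the PTH library at 98.01 CPM. Its gene overlaps Sh3gl2 on the same strand. Adamtsl4 and Adamtsl5 were highest in fibroblast-like cells of the PTH library, at 30.7 and 53.2 CPM and 18.4 and 30.5 CPM in Control and PTH.

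The sheddase ADAMs cut proteins off the cell surface. Adam17, which releases tumour necrosis factor, was read in all the main classes, at 29.9, 30.8 and 35.2 CPM in chondrocyte-like, 69.7, 73.9 and 92.6 CPM in endothelial-like and 82.5, 76.2 and 80.9 CPM in macrophage-like cells. Adam15 and Adam10, the latter a Notch-cleaving enzyme, were endothelial-led, at 262, 288 and 295 and 198, 218 and 232 CPM, with 6.23, 7.16 and 7.84 CPM of Adam10 in chondrocyte-like cells. Adam8, a leukocyte enzyme, was at 194, 298 and 129 CPM in neutrophil-like and 79.7, 68.4 and 179 CPM in macrophage-like cells. Adam12 was spread over fibroblast-like (59.7, 47.5 and 22.5 CPM), endothelial-like (22.3, 26.7 and 58.6 CPM) and chondrocyte-like cells (16.3, 9.86 and 8.73 CPM). Adam33 was at 54.4, 81.4 and 27.03 CPM in fibroblast-like cells. Of the members without the motif, Adam23, a surface protein known from nerve tissue, was at 176 and 212 CPM in Schwann-like cells of Control and PTH and at 2.19, 4.04 and 0.6404 CPM in chondrocyte-like cells.

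Summed over each role, the TIMPs stood above the listed secreted MMPs in chondrocyte-like cells, with 790.3, 700.1 and 879 against 239, 246 and 148 CPM in the Control, PTH and YKL libraries. All sums of secreted MMPs here leave out Mmp9 and Mmp13. In chondrocyte-like cells Mmp13 alone read 98.2, 84.2 and 335 CPM, so the order of the libraries in these sums is that of the listed genes only. In fibroblast-like cells the sums were 2129, 2511 and 2658 against 1359, 1664 and 1834 CPM. Endothelial-like cells held 581, 695 and 573 CPM of TIMPs and only 73.3, 62.4 and 18.9 CPM of secreted MMPs, but 579, 637 and 754 CPM of sheddase ADAMs. Macrophage-like cells held 658, 706 and 382 CPM of TIMPs and 1042, 151 and 1601 CPM of secreted MMPs in the 3 libraries. In the Control library the secreted MMPs thus stood above the TIMPs, and most of their UMIs were Mmp12. In the YKL library 255 of their 277 UMIs were the Mmp12 UMIs of the single cell described with that gene, so the sum there says nothing of the other cells. These sums are of RNA and do not measure enzyme.

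Chondrocyte-like cells fell into 5 clusters, which were ordered by Col10a1, the collagen of hypertrophic cartilage. Its level over all libraries was 121, 289, 1226, 2968 and 22208 CPM in clusters 1, 0, 5, 6 and 3. The YKL library had 36.0% of its chondrocyte-like cells in the last of these, against 19.4% in the PTH and 12.3% in the Control library. It held 6.89% in the first, against 25.7% and 36.2%. The clusters differ between libraries in genes that also define them, so these shares are a description.

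Along that order of clusters 1, 0, 5, 6 and 3, Timp3 read 69.2, 43.3, 107, 170.4 and 275 CPM in the Control library. In the PTH library it read 68.1, 136, 224, 238 and 275 CPM and in the YKL library 154, 258, 215, 403 and 323 CPM. Timp3 was thus highest toward the Col10a1-rich end in the Control library, and in clusters 1, 0, 6 and 3 the YKL library stood above both others. Adam17 and Adamts6 also had their highest Control values in cluster 3, with 28.8, 26.1, 22.3, 25.9 and 54.9 CPM and 6.07, 5.39, 7.27, 11.95 and 22.7 CPM over the 5 clusters. Mmp23, Mmp16 and Mmp2 ran the other way and peaked in cluster 0, which is led by Ucma. Mmp23 read 63.6, 91.8, 8.18, 21.9 and 11.4 CPM in Control, 41.3, 86, 5.34, 21.7 and 13.5 CPM in PTH and 24.7, 93.7, 3.19, 6.92 and 9.66 CPM in YKL cells. Mmp16 read 21.7, 38.6, 10.9, 13.9 and 14.8 CPM in Control and 13.9, 25.9, 5.93, 9.44 and 4.83 CPM in YKL cells, and Mmp2 168, 233, 53.2, 94.6 and 88.9 and 161, 283, 48.8, 83.4 and 77.2 CPM. Cluster 0 held the top value of these 3 genes in both libraries given. Timp1 had no such order, at 622, 525, 199, 634 and 525 CPM in the Control library, with cluster 5 lowest in all 3 libraries.

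**Figure D3:**
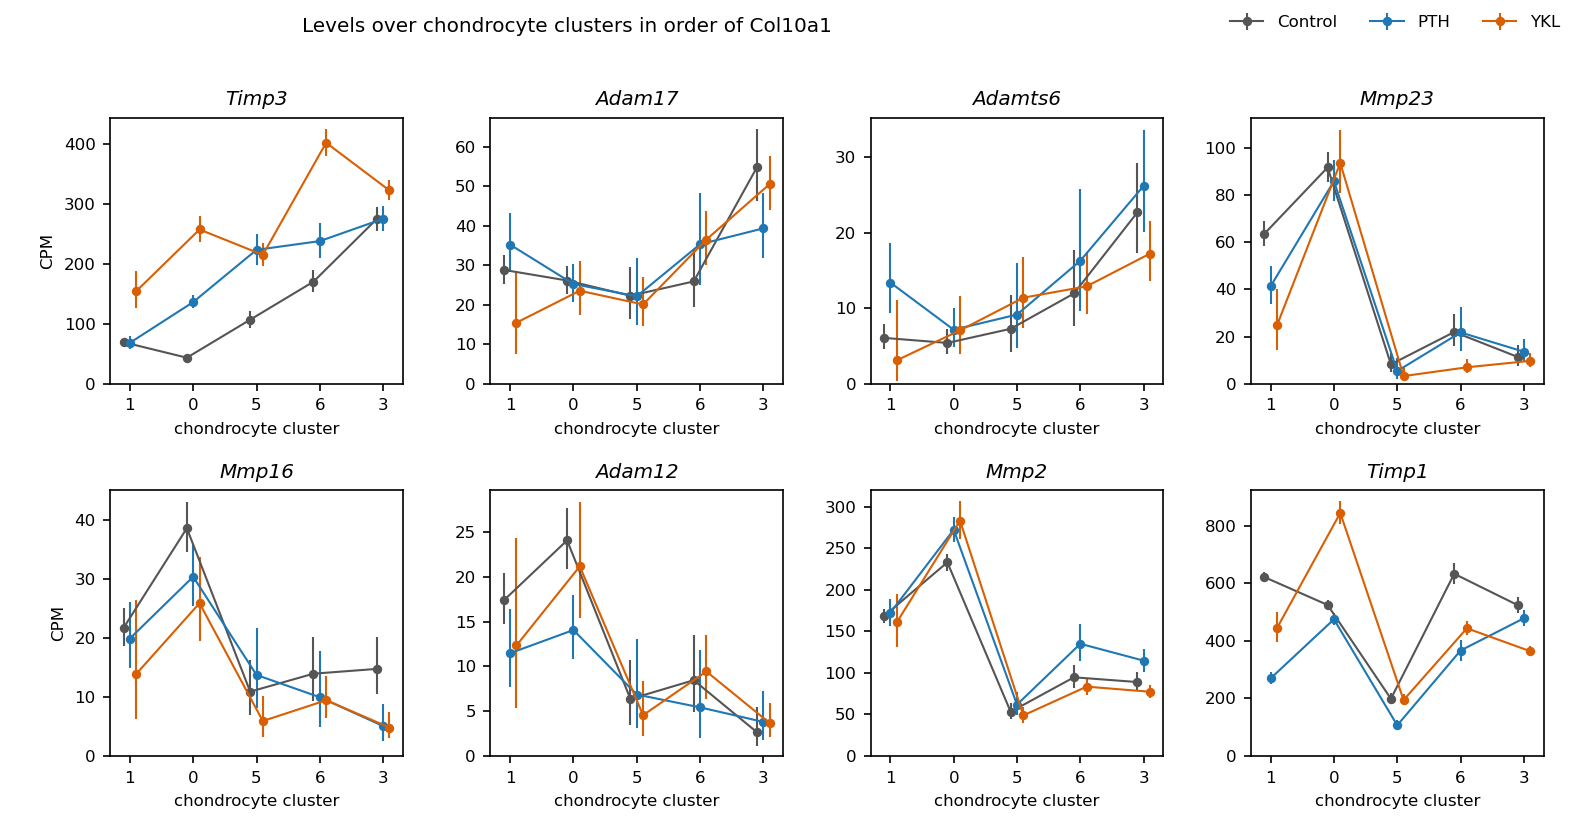
Levels of 8 genes in CPM over the 5 chondrocyte-like clusters, ordered from left to right by Col10a1, with 1 line per library and 95% counting intervals as bars. Timp3 climbs from 43.3 to 275 CPM between clusters 0 and 3 of the Control library, while Mmp23 drops from 91.8 to 11.4 CPM.

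Differences between libraries were then read within each class, as ratios of CPM for those genes that reached 50 UMIs in the pair of libraries. A gene was counted as higher or lower from a 1.5-fold difference on, and the count is given beside the share of all genes past the same fold. All comparisons with the Control library share its cells, so they are not independent of each other. In chondrocyte-like cells of the PTH library against Control, 5 of 29 genes were higher and 1 lower. Of all 11254 genes tested there, 5.30% were higher and 3.22% lower, and the median log2 ratio was 0.15 for the 29 genes and -0.01 for all. The best counted of these was Timp3, with a ratio of 1.77 (95% interval 1.67 to 1.88). Adamts5, at the low levels given above, had a ratio of 2.92 (95% interval 1.69 to 5.13), Adamts6 1.62 (95% interval 1.303 to 2.002), and Adam23 1.85 (95% interval 1.22 to 2.79). The Adamts5 ratio was 1.54 with cells of at least 200 genes and 1.504 without the top 6% of doublet scores. Adamts14 was higher at a ratio of 1.82. Adam12 was lower, at 0.604 (95% interval 0.487 to 0.744), and Timp1 at 0.705 (95% interval 0.681 to 0.729) fell just short of the threshold. Within the 5 clusters, Timp3 was above Control in 4, with ratios from 0.985 to 3.15, and with the clusters weighted equally its ratio was 1.42, below the threshold. Adamts6 was above Control in all 5, with ratios from 1.16 to 2.21, but reached 1.5-fold in only 1. Either way, 8.51% of all genes tested passed 1.5-fold. The count of listed genes past it was 13 in place of 6 with at least 1000 genes per cell, with up to 20% mitochondrial UMIs or with called doublets kept, and 14 with unnamed clusters 9, 12 and 13 counted as chondrocytes. With each cell thinned to 2000 UMIs it was 3. The share of all genes past the fold was not computed at these other settings.

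In chondrocyte-like cells of the YKL library against Control, 6 of 27 genes were higher and 7 lower, where 10.0% of all genes tested were higher and 8.53% lower. The median log2 ratio was -0.29 for the 27 genes and -0.01 for all. Timp3 was the inhibitor that was higher, with a ratio of 3.203 (95% interval 3.04 to 3.38) that lay above 1 in all 5 clusters (1.17 to 5.95) and was 2.03 with clusters weighted equally. Adamtsl1 (2.89, 95% interval 2.13 to 3.96), Adam9 (1.77, 95% interval 1.25 to 2.5) and Adamts6 (1.53, 95% interval 1.23 to 1.89) were also higher, as were Adamts14 and Adamts18 at ratios of 1.73 and 1.58, the latter with an interval that includes 1. With clusters weighted equally Adamts6 was at 0.968 and Adamtsl1 at 1.61.

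Of the 7 genes lower in that comparison, Mmp23 and Mmp16 had their highest level in the Ucma-led cluster 0. Mmp23 had a ratio of 0.388 (95% interval 0.3403 to 0.441), Mmp16 0.407 (95% interval 0.333 to 0.493), Adamts2 0.402 (95% interval 0.242 to 0.642) and Adam23 0.293 (95% interval 0.1201 to 0.6204). The Adamts2 ratio was 0.685 with at least 1000 genes per cell. Adam12, Adamtsl5 and Mmp19 were lower at ratios of 0.534, 0.607 and 0.655. Mmp16 was below Control in each of the 5 clusters (0.327 to 0.677), whereas Mmp23 ranged from 0.316 to 1.02 and Adam12 from 0.7105 to 1.39. With clusters weighted equally Mmp23 stood at 0.702 and Mmp16 at 0.6004. Timp1 and Mmp2, at 0.818 (95% interval 0.792 to 0.844) and 0.684 (95% interval 0.644 to 0.728), did not reach 1.5-fold.

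Other genes moved in these cells beside the proteases. The 8 hypertrophic cartilage genes summed to 9339, 13809 and 22487 CPM in the Control, PTH and YKL libraries, and in the YKL library all 8 were at least 1.5-fold above Control. The 14 genes of the tissue dissociation and heat shock response summed to 3665, 5385 and 5594 CPM, with 6 of 14 above Control in PTH cells, 7 of 14 in YKL cells and none below. The part of either set in the ratios of Timp3 and the other genes was not tested.

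The YKL and PTH libraries were also compared directly. In chondrocyte-like cells, 3 of 25 genes were higher in the YKL library and 10 lower, where 6.61% of all genes were higher and 6.34% lower, with median log2 ratios of -0.18 and 0.01. Timp3 (1.81, 95% interval 1.71 to 1.91), Adamtsl1 (2.23, 95% interval 1.57 to 3.22) and Adamts18 (2.02, 95% interval 1.08 to 3.92) were higher. Adam23 (0.158, 95% interval 0.0647 to 0.338), Adamts2 (0.282, 95% interval 0.167 to 0.4598), Mmp23 (0.489, 95% interval 0.422 to 0.565) and Mmp2 (0.619, 95% interval 0.578 to 0.662) were among the lower ones, with Mmp16, Mmp19, Adamts3, Adamts10, Adamts12 and Adamtsl5 at ratios from 0.531 to 0.662. With clusters weighted equally, the Timp3 ratio was 1.44 and that of Mmp2 0.864. With at least 1000 genes per cell the Adamtsl1 ratio was 0.897 and that of Adamts18 1.06.

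Fibroblast-like cells held enough cells for the PTH and Control libraries only. There 6 of 31 genes were higher in the PTH library and 1 lower, where 9.89% of all genes tested were higher and 7.23% lower, and the median log2 ratio was 0.20 against -0.01 for all. Mmp3 differed most, with a ratio of 9.08 (95% interval 6.14 to 14.01). A single cell held 24.9% of its UMIs over both libraries, and without that cell the ratio was 6.76. Adamts5 had a ratio of 2.64 (95% interval 2.31 to 3.03), Adamts15 2.202 (95% interval 1.58 to 3.14) and Adamtsl1 2.09 (95% interval 1.404 to 3.22). Adamtsl4 and Adamtsl5 were higher at 1.73 and 1.65, and Adamtsl3 was lower at 0.555 (95% interval 0.327 to 0.9601). With at most 5% mitochondrial UMIs 28 genes passed 1.5-fold, the Adamtsl3 ratio was 1.57, and those of Adamts5 and Adamts15 were 6.07 and 6.48. The share of all genes past the fold was not computed at that setting. With cells thinned to 2000 UMIs the Mmp3 ratio was 15.9. Timp2, Mmp2 and Timp1 stayed under 1.5-fold in these cells, with ratios of 1.32 (95% interval 1.24 to 1.396) for Timp2, 1.097 (95% interval 1.03 to 1.17) for Mmp2 and 1.03 (95% interval 0.939 to 1.13) for Timp1. Tendon markers, measured because tendon-like cells were nearly all in the PTH library, summed to 1613 and 2359.5 CPM in the fibroblast-like cells of Control and PTH, with 2 of 4 tested higher. Dissociation genes summed to 1633 and 2915 CPM, with 7 of 13 higher, chondrocyte markers to 1351 and 382 CPM and haemoglobin and other erythroid genes to 18429.7 and 4020.4 CPM. Their part in the ratios was not tested.

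Endothelial-like cells allowed all 3 comparisons. In the PTH library against Control, 3 of 18 genes were higher and 0 lower, where 8.56% of all genes tested were higher and 3.44% lower. The endothelial proteoglycan-cleaving genes Adamts1 (1.88, 95% interval 1.57 to 2.25) and Adamts9 (1.84, 95% interval 1.46 to 2.34) were higher, and Adam9 had a ratio of 1.55 (95% interval 0.821 to 3.099), an interval that includes 1. Within 2 endothelial-like clusters, Adamts1 was at 1.18 and 2.11 and Adamts9 at 1.75 and 2.17. Adam9, read in 1 cluster, was at 1.32. The median log2 ratio was 0.27 for the 18 genes and 0.11 for all. In the YKL library against Control, 3 of 14 were higher and 2 lower, where 12.8% of all genes were higher and 6.39% lower, with medians of 0.36 for the 14 and 0.12 for all. Adam12 (2.63, 95% interval 1.55 to 4.47), Adamts1 (1.87, 95% interval 1.46 to 2.39) and Mmp15 (1.67, 95% interval 1.12 to 2.46) were higher. Timp2 (0.552, 95% interval 0.422 to 0.714) and Mmp2 (0.235, 95% interval 0.0734 to 0.581) were lower. Only 1 endothelial-like cluster could be read by itself in this comparison. There Timp2 was at 0.843, short of 1.5-fold. Mmp2 was at 0.204, Adam12 at 2.22, Adamts1 at 2.498 and Mmp15 at 1.65. Against the PTH library, 3 of 18 were higher in the YKL library (Adam19 at 3.07, Adam12 at 2.195 and Adam9 at 2.06) and 2 lower (Timp2 at 0.524 and Mmp2 at 0.193), where 8.38% of all genes were higher and 9.29% lower, with medians of 0.03 and 0.02.

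Several markers of other cells moved with these endothelial values. Fibroblast markers summed to 1169.8, 1419 and 858 CPM in endothelial-like cells of the Control, PTH and YKL libraries, and in the YKL library 5 of the 8 tested were at least 1.5-fold below Control. So were Timp2 and Mmp2, which are not on the marker list. Both had their highest class level in fibroblast-like cells of the Control and YKL libraries. Dissociation genes summed to 2200.1, 3486 and 3782 CPM, with 6 of 13 higher in the PTH and 7 of 12 in the YKL library, and Adamts1 was higher in both. Erythroid genes summed to 73605, 10646 and 23056 CPM, chondrocyte markers to 3846, 2129 and 924 CPM and neutrophil markers to 3559.6, 36.5 and 11.3 CPM. Their part in the ratios was not tested.

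In pericyte-like cells, 2 of 14 genes were higher in the PTH than in the Control library and 2 lower, where 11.0% of all genes tested were higher and 4.37% lower, with median log2 ratios of 0.21 and 0.08. Mmp11 (1.897, 95% interval 1.28 to 2.83) and Adamts1 (1.78, 95% interval 1.35 to 2.34) were higher, Mmp23 (0.484, 95% interval 0.304 to 0.749) and Adamts15 (0.563, 95% interval 0.307 to 0.987) lower. Dissociation genes summed to 4070.4 and 6472 CPM in these cells, and none of the 10 pericyte markers tested passed 1.5-fold. Unnamed cluster 12 had 2 of 13 genes higher, Adamts12 at 1.61 (95% interval 1.11 to 2.4) and Adamts2 at 1.503 (95% interval 1.03 to 2.23), and 1 lower, Adam12 at 0.558 (95% interval 0.371 to 0.843), where 8.44% of all genes were higher and 6.08% lower, with medians of 0.14 and -0.02. Adam12 was thus lower in the PTH library in both the chondrocyte-like cells and cluster 12.

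In macrophage-like cells the largest fold was that of Mmp12, the elastase named for them. Of 10 genes tested, 1 was higher in the PTH than in the Control library and 4 lower, where 15.6% of all genes were higher and 7.97% lower, with median log2 ratios of -0.17 and 0.12. Mmp12 had a ratio of 0.0415 (95% interval 0.0241 to 0.0668), and in the larger macrophage-like cluster alone the ratio was 0.0461. Mmp19 had a ratio of 0.194 (95% interval 0.113 to 0.314), or 0.274 without the cell that held most of its UMIs. Timp1 (0.526, 95% interval 0.295 to 0.8901) and Mmp14 (0.624, 95% interval 0.379 to 0.994) were lower too, with Timp1 at 0.709 without its top cell and 0.195 with doublets kept, and Mmp14 at 3.15 with coarser clusters. Adam15 was higher, at 1.997 (95% interval 1.38 to 2.89). Chondrocyte markers, which macrophages should lack, summed to 4112 and 412 CPM in the Control and PTH cells, and all 13 tested were lower. Spp1 was at 1866 CPM in Control against 301 CPM in PTH cells, and the cathepsin Ctsl, which also degrades matrix, at 6227 against 1809.9 CPM. Dissociation genes summed to 4268 and 7537 CPM, with 9 of 14 higher, and neutrophil markers to 2677 and 76.2 CPM. Their part in the ratios was not tested.

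**Figure D4:**
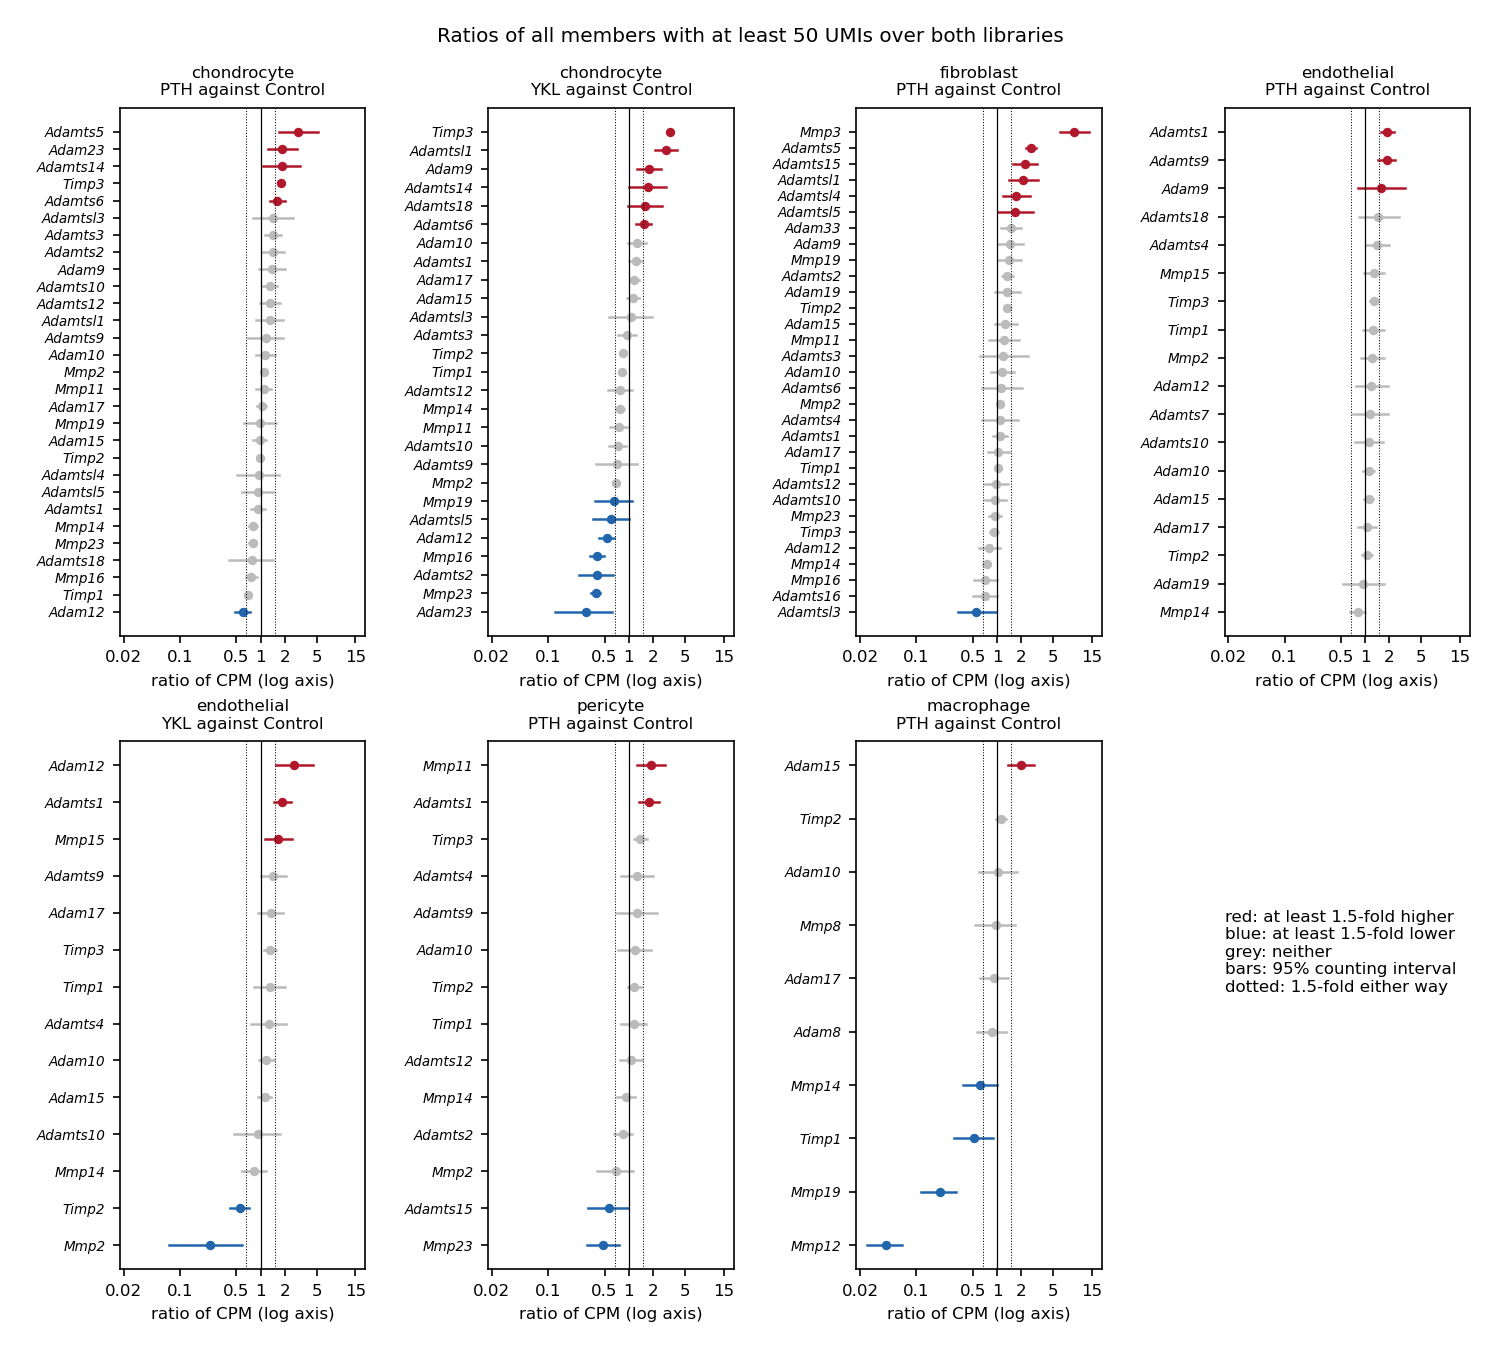
Ratios of CPM between libraries on a log axis for the listed genes that reached 50 UMIs in the pair, 1 panel per class and comparison, with 95% counting intervals as bars, red from 1.5-fold higher and blue from 1.5-fold lower. Timp3 leads the chondrocyte-like YKL panel at 3.20, Mmp3 the fibroblast-like panel at 9.08, and Mmp12 is lowest in the macrophage-like panel at 0.0415.

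Genes that act on these enzymes were read from a list of 29 activators, co-factors and other inhibitors. The 29 also include Mmp9 and Mmp13, which are MMPs themselves, so counts from this list include them where they were tested. In chondrocyte-like cells, 3 of 20 tested were higher and 2 lower in the PTH library, and 9 of 21 higher and 2 lower in the YKL library, against Control. Of all genes tested there, 5.30% were higher and 3.22% lower in the PTH library, and 10.0% higher and 8.53% lower in the YKL library. Serpine2, an inhibitor of serine proteases, was at 126 CPM in Control and 259 CPM in PTH cells. Bsg, a surface protein known as an MMP inducer, was high and even, at 3774, 3918 and 4667 CPM. Mmp13, the cartilage collagenase outside the family as chosen here, was at 98.2, 84.2 and 335 CPM in the 3 libraries, so that it stood beside Timp3 as higher in the YKL library, at a ratio of 3.41. An Mmp13 UMI was found in 116 of 1401 Control and 101 of 392 YKL cells, and 1 cell held 29.4% of the YKL UMIs. Cluster 3, with Mmp13 among its leading genes, held 36.0% of YKL and 12.3% of Control chondrocyte-like cells. The part of these shares in the Mmp13 ratio was not tested. Of 16 other matrix enzymes, 13 were tested in these cells, with 2 higher and 1 lower in the PTH library and 4 higher and 3 lower in the YKL library. Pcolce2, an enhancer of procollagen cleavage, was at 560.4, 544 and 1038 CPM.

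In fibroblast-like cells of the PTH library, 6 of 17 tested genes of the activator list were higher and 1 lower, where 9.89% of all genes were higher and 7.23% lower. Cd44, a surface receptor that docks MMPs, was at 109.7 CPM in Control and 197 CPM in PTH, and Pcsk5, a convertase of the kind that activates membrane-type MMPs and ADAMTS precursors, at 135 and 226 CPM. Lrp1, the receptor that clears ADAMTS5 and TIMP complexes from the cell surface, was at 274 and 364 CPM. Serpine2 was lower, at a ratio of 0.368. In endothelial-like cells, 3 of 16 genes of the list were higher and 2 lower in the PTH library, and 5 of 10 higher and 0 lower in the YKL library. Over all genes, 8.56% were higher and 3.44% lower in the first of these comparisons, and 12.8% higher and 6.39% lower in the other.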

How the data were processed

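Droplet libraries were made with a 10x 3′ kit from collagenase-digested day 7 callus, 1 each for Control, PTH and YKL. The values are deposited raw counts of UMIs. Per the file headers, Cell Ranger 4.0.0 wrote them. The submitters' processing notes also name Seurat and mm10, with no role given. Strand handling and cell filters are not given in the sources used here.

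Barcodes with 500 or more genes were kept if mitochondrial UMIs did not exceed 10% (14.3%, 21.5% and 11.8% of Control, PTH and YKL barcodes were over it), and the 48, 8 and 7 barcodes called as doublets by Scrublet were removed. Counts were scaled to 10000 UMIs, and 2000 variable genes without the listed genes, Mmp9 and Mmp13, 30 components and 15 neighbours were used for Leiden clusters (resolution 0.8; Python 3.11.15, scanpy 1.11.5, leidenalg 0.10.2, scipy 1.17.1), with no integration. Clusters were named from markers of 18 classes. Levels are shown for classes with at least 15 cells. Ratios needed 50 cells in both libraries and 50 UMIs, within-cluster ratios 20 UMIs. They carry exact conditional binomial intervals, levels exact Poisson and shares exact Clopper-Pearson intervals. For thinning, 340 cells were too shallow. The ratio code was tested on simulated data.

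Full values were given for up to 4 genes per role with most UMIs and, per comparison, for up to 4 higher and 4 lower whose interval bound nearest 1 was farthest from it. The members and lists were chosen with earlier results of these data known. The zinc motif was searched in coding sequences in place of the planned protein sequences, and its asparagine form was added after the first search. Coordinates are GENCODE vM21 (GRCm38). Also overlapping another gene were Timp2 (Cep295nl), Timp3 (Syn3), Timp4 (Syn2) and Mmp12 (Mmp1b). Alternatives tried are in the closing section.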

Additional observations from a re-analysis of the deposited data

Results flagged for a closer look

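Adamts15, a proteoglycan-cleaving enzyme, had opposite directions in 2 cell classes of the PTH library against Control. Its ratio was 2.20 in fibroblast-like cells, at 35.97 and 79.2 CPM in the Control and PTH libraries, and 0.563 in pericyte-like cells, at 67.5 and 37.9 CPM.

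Adam12 had opposite directions in 2 classes of the YKL library against Control. The ratio was 0.534 in chondrocyte-like cells, where clusters within the class ranged from 0.7105 to 1.39, and 2.63 in endothelial-like cells, from 57 cells in the YKL library. With 1 library per group, neither difference between classes was tested.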

How the results depend on the processing

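Of 611 alternative values of 47 gene ratios, 545 stayed within the counting interval of the main ratio, 59 moved and 7 reversed. A value within that interval can still fall short of 1.5-fold. For PTH against Control, Adam9 in endothelial-like cells fell to 1.24 and Adamts6 in chondrocyte-like cells to 1.35, both within their intervals. For 9 counts, 97 of 135 alternative values stayed within 1.5 times of the main one and 38 moved. Timp3 in chondrocyte-like cells ranged from 2.03 to 3.501 for YKL and from 1.42 to 1.82 for PTH against Control, Mmp3 in fibroblast-like cells from 6.76 to 15.9, and Mmp12 in macrophage-like cells from 0.0283 to 0.0513. Adamtsl1 in chondrocyte-like cells, YKL against PTH, was 2.23 and became 0.897 with at least 1000 genes, 0.956 with 20% mitochondrial UMIs, 0.931 with doublets kept and 0.942 with clusters 9, 12 and 13 counted as chondrocytes. Adamtsl3 in fibroblast-like cells turned to 1.57 with 5% mitochondrial UMIs, Mmp14 in macrophage-like cells to 3.15 at resolution 0.4 and Adamts6 in chondrocyte-like cells, YKL against Control, to 0.968 with clusters weighted equally. The cause was not tested.

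The count for chondrocyte-like cells, PTH against Control, was 6 and became 13 with at least 1000 genes, with 20% mitochondrial UMIs and with doublets kept, 12 without the top 6% of doublet scores, 14 with clusters 9, 12 and 13 added, 3 when thinned to 2000 UMIs, 3 at 200 UMIs or more and 1 at 2-fold. That for endothelial-like cells was 3 and became 5 with at least 200 genes, 8 at 20 UMIs or more and 0 at 2-fold. For fibroblast-like cells it was 7 and became 28 with 5% mitochondrial UMIs, 12 with the listed genes among the variable genes, 3 when thinned, 4 at 200 UMIs and 4 at 2-fold. For macrophage-like cells it was 5 and became 1 when thinned, 9 at 20 UMIs, 2 at 200 UMIs and 2 at 2-fold. For pericyte-like cells it was 4 and became 7 with doublets kept, 2 when thinned, 9 at 20 UMIs, 1 at 200 UMIs and 1 at 2-fold. For YKL against Control, chondrocyte-like cells had 13, which became 5 when thinned, 5 at 200 UMIs, 8 with equal weights and 6 at 2-fold. Endothelial-like cells had 5, which became 2 without the top 6% of doublet scores, 10 at 20 UMIs, 2 at 200 UMIs and 2 at 2-fold. For YKL against PTH, chondrocyte-like cells had 13, which became 3 when thinned, 6 at 200 UMIs, 7 with equal weights and 5 at 2-fold, and endothelial-like cells had 5, which became 1 at 200 UMIs. A higher UMI minimum or fold leaves fewer genes to count. The share of all genes past the fold was not computed at any alternative setting. These counts therefore do not show if the listed genes or all genes shifted.

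Leaving out each replicate was not possible with 1 library per group, and no paired analysis was possible because each group has 1 library. The added alternatives (the 3 clusters counted as chondrocytes, leaving out the cell with most UMIs) were chosen after seeing the data. Classes that an alternative left unnamed or with under 50 cells gave no value, and cluster 12 was not rerun. Depth limits Adamts14, Adam23 and Adamts5 in chondrocyte-like cells, which had few UMIs, and the YKL library, with 602 cells, limits all its values outside the chondrocyte-like and endothelial-like classes.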
